A study of Mus musculus with 36 samples.

Results

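Genes of the cell cycle and of DNA replication were followed in mouse lung through 21 days of hypoxia and 14 days of recovery. The set was defined by symbol, with earlier results of these data known. It took in minichromosome maintenance (Mcm) and origin recognition (Orc) genes, Gins genes, DNA polymerases alpha, delta and epsilon with primase, replication factor C, Pcna, Lig1 and Top2a. Also included were A, B, D, E and F cyclins, numbered Cdk, Cdkn and Cdc genes, Aurora and Polo-like kinases, mitotic kinesins, and Cenp, Bub, Ttk and Mad2l genes. Cdk19, Cdkn1c and the Cdc42 family were left out. It held 99 genes on 140 spots, of 6971 genes with a single symbol and 15388 spots on the array. By main role, 30 act in mitosis or at the centromere, 15 in DNA synthesis, 12 at the origin or in the replicative helicase, 9 are kinases and phosphatases of the cycle, 6 are cyclins, 3 are inhibitors or regulators of cyclin-dependent kinases (CDKs) and 3 belong to the anaphase-promoting complex. The other 21 matched by name but have other main roles, such as Cdk13 and Cdk12 in transcription.

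The samples were whole lungs of BALB/c mice, an inbred strain, kept at 0.5 atm for 1, 3, 7, 14 or 21 days (hypoxia), or for 21 days with 1, 3, 7 or 14 further days back at sea-level pressure (recovery, called days 22, 24, 28 and 35). On each spotted 2-colour cDNA array, RNA pooled from 5 exposed mice was set against RNA pooled from 5 time-matched controls, and each of the 9 days had 4 arrays, 36 in all. Every value below is a log2 ratio, exposed over control lung. Its direction is likely rather than certain, since only the protocol's wording, which puts the hypoxic sample and Cy5 first, bears on it, and the lowest correlation between any arrays of different days was -0.32. Every day had its own control pool. Whether a day's 4 arrays hold RNA of different animals is not stated, so p-values measure the spread between arrays or days, which may be technical.

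Cells divide in ordered steps. In late G1, D and E cyclins with their kinases release E2F factors, which switch on genes for origin licensing, the Mcm helicase and DNA synthesis. Later in the cycle, A and B cyclins with Cdk1 drive entry into mitosis, where Aurora and Polo-like kinases and the spindle checkpoint (Bub1, Ttk, Mad2l1) act until Cdc20 activates the anaphase-promoting complex. Many genes of this later group carry a promoter element called the cell cycle homology region, often beside CCAAT boxes. The adult lung divides slowly, and chronic hypoxia is a classic means of thickening small pulmonary arteries in rodents. In whole lung, more dividing cells and more RNA per cell cannot be told apart.

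Promoters of 5 members of S phase and mitosis are shown because genes of these stages are known for such elements. They were chosen after their values were seen: Cdk1, Ccnb2 and Cdc20 passed over hypoxia, whereas Top2a and Mcm6 did not but passed on single days. Each runs from 250 bases before the annotated start to 10 after it, 5′ to 3′ on the gene's strand, from RefSeq on GRCm38.p6, and capitals mark matches on either strand to TTTGAA (the cell cycle homology region), CCAAT (the CCAAT box), or TTTCGCGC, TTTGGCGC, TTTCCCGC or TTTGCCGC (E2F sites).
Cdk1, chr10:69352903-69353162 (minus strand): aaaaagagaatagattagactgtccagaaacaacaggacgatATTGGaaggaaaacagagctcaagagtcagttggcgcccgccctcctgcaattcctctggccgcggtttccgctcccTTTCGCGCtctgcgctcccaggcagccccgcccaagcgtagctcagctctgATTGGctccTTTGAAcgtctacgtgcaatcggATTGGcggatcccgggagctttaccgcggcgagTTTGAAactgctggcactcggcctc
Ccnb2, chr9:70421545-70421804 (minus strand): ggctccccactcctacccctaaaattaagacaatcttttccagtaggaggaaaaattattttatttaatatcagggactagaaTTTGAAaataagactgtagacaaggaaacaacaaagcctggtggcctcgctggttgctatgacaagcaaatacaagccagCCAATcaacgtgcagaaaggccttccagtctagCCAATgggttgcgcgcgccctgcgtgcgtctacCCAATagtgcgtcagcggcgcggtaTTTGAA
Top2a, chr11:99024180-99024439 (minus strand): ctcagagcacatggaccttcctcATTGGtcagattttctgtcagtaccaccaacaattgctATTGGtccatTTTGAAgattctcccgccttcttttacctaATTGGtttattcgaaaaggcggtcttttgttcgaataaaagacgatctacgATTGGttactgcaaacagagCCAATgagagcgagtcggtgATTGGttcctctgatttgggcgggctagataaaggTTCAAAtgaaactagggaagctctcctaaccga
Cdc20, chr4:118437334-118437593 (minus strand): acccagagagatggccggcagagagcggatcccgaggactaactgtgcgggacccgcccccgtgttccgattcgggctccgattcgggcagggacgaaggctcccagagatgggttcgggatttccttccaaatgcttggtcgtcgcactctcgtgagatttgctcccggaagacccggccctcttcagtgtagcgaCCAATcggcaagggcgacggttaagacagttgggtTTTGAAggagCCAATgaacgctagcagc
Mcm6, chr1:128359696-128359955 (minus strand): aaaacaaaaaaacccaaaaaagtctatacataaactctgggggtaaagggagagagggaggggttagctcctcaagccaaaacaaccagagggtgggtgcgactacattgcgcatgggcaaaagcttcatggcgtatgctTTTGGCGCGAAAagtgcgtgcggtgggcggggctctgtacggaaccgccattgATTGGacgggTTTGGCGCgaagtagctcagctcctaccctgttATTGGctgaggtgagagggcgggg

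The Cdk1 window held each of the 3 kinds of element. Ccnb2, Top2a and Cdc20 held homology region and CCAAT matches without an E2F match, and Mcm6 held E2F and CCAAT matches without a homology region, with a pair of its E2F matches overlapping. Windows were found for 87 members. TTTGAA stood in 20.7 percent of them, against 18.6 percent of all 27025 genes with a window, CCAAT in 60.9 percent against 38.3 percent, and an E2F word in 13.8 percent against 2.27 percent, on either strand. Among 28 members higher over the hypoxia phase (defined below) with a window, 10 held TTTGAA (35.7 percent). Of the remaining 59, 8 held it (13.6 percent). An E2F word stood in 4 of the 28 and 8 of the 59 (14.3 and 13.6 percent). CCAAT stood in 19 and 34 of them (67.9 and 57.6 percent). A match is a string of letters and not a measured site. The end of the window at 10 bases was a choice, and how the counts depend on it was not tested.

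The arrays fell into pairs within each day, which touches every result. Across all features, the median Pearson r was 0.69 within the pairs (replicate 1 with 2, and 3 with 4) and 0.29 across them. The same split ran through all days: 24 of 96 members differed between the pairs in 1 direction at all 9 days, as did 24.6 percent of all features. What separated the pairs is not given in the labels and was not tested, so the means of each pair are given for many members beside the mean of all 4 arrays. Of the 42 members called over hypoxia below, 18 did not keep the call in replicates 3 and 4 alone and 13 did not in replicates 1 and 2 alone. Replicates 1 and 2 of day 14 were the least alike of such pairs (r = 0.36), and replicate 1 of day 28 had the widest spread of all arrays (SD 0.52). Counts are also given without replicate 2 of day 14 and without replicate 1 of day 28, both left out as alternatives chosen after seeing the data.

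Over the hypoxia phase (the mean of 5 day means, n = 5 days), 34 of 97 members with enough values were higher than control at an adjusted p under 0.05 in limma and 8 were lower. Among all features tested 42.4 percent passed, 24.7 percent higher and 17.7 percent lower, so the members' total of 42 (43.3 percent) was close to the background and their split leaned to the higher side. The median member stood at 0.09 and the median feature at 0.03, and 68 of the 97 members were above 0. Median centring of each array gave 24 higher and 11 lower (36.1 percent, against 41.5 percent of all features), and scaling the arrays to a common spread gave 20 higher and 7 lower (27.8 percent, against 37.4 percent). The count rested on days 3 and 7. Without day 3, 21 members passed (21.6 percent, against 35.2 percent of all features), and without day 7, 24 passed (24.7 percent, against 32.9 percent). In each of these fits 17.5 percent of members were higher, against 20.1 and 18.7 percent of all features. The share of higher members thus did not exceed the background without either day. Lower members were 4.12 percent without day 3 and 7.22 percent without day 7, against 15.1 and 14.2 percent. The split of the called members therefore still leaned to the higher side. The count was 37 without replicate 2 of day 14 (38.1 percent, against 41.2 percent of all features) and 48 without replicate 1 of day 28 (50.5 against 44.5 percent).

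**Figure D1:**
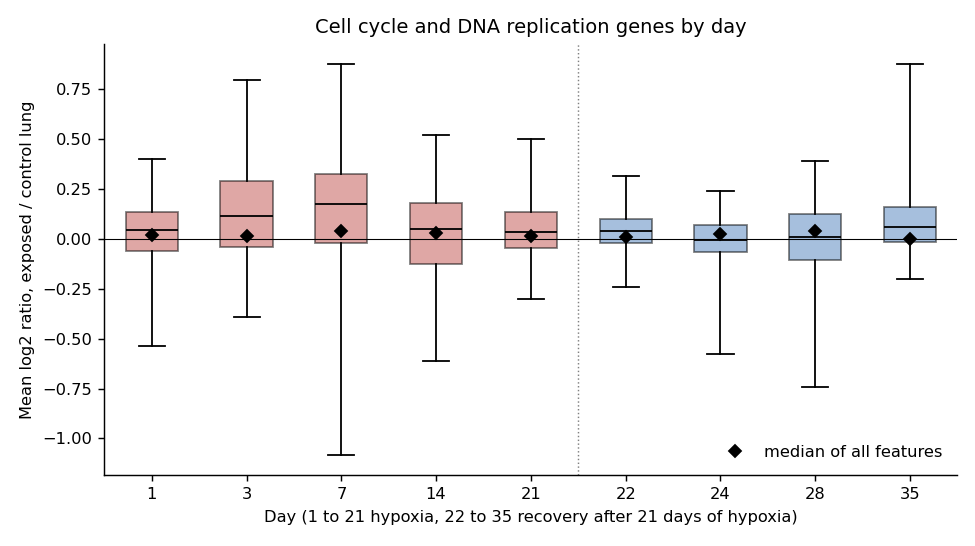
Box plot of the day means (log2 ratio, exposed over control lung) of all measured members by day; boxes span the quartiles, the line is the median and whiskers reach the lowest and highest member. The member median is highest at day 7 (0.17) and day 3 (0.12), while the median of all features (diamonds) lies between 0.00 and 0.04.

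Cyclins leaned highest as a group, with 5 of 6 higher, none lower and a median of 0.26. For each role count here and below, 24.7 percent of all features were higher over hypoxia and 17.7 percent lower. Ccnb2, the B-type cyclin partner of Cdk1, had a hypoxia mean of 0.50 ± 0.30 (SD over days, n = 5; 1.41-fold, adjusted p = 0.0014). Its 4 arrays read 1.01, 1.07, 0.40 and 0.24 at day 3, and 0.82, 1.02, 0.85 and 0.69 at day 7, against -0.02, 0.02, 0.07 and 0.15 at day 1. No array of day 3 or 7 overlapped those of day 1. Ccnd3, a D-type cyclin that acts in G1, had a mean of 0.41 ± 0.18 (1.33-fold, adjusted p = 0.00078) and was above 0 on all 20 hypoxia arrays. In recovery its arrays lay between -0.42 and 0.04 apart from 0.77 on replicate 1 of day 24. Ccnd1, the growth-factor-responsive D cyclin, was steady over hypoxia, with day means between 0.20 and 0.34. Ccna2, the S-phase and mitotic A cyclin, had a mean of 0.25 ± 0.17 (adjusted p = 0.021), a call lost without day 3 (0.24), day 7 (0.20) or day 21 (0.23), with a common spread (0.21) and in replicates 1 and 2 alone (0.21, adjusted p = 0.061). The 3 spots of Ccna2 had hypoxia means of 0.12, 0.36 and 0.27. Ccne1, which drives entry into S phase, stood at 0.16 ± 0.13 (adjusted p = 0.017), a call lost without replicate 4 (0.11), day 3 (0.15) or day 14 (0.12) and in replicates 1 and 2 alone (0.088). Ccnd2 at -0.11 ± 0.10 did not pass.

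Among 9 kinases and phosphatases of the cycle, 3 were higher and none lower, against 24.7 percent of all features higher and 17.7 percent lower. Cdk1, the kinase that triggers mitosis, had a hypoxia mean of 0.50 ± 0.33, 1.42-fold (adjusted p = 0.017), and with Ccnb2 it was the highest of the members. Its arrays read 0.15, 0.21, 0.23 and 0.35 at day 1, 1.07, 0.71, 0.74 and 0.67 at day 3, and 0.91, 0.77, 0.91 and 0.92 at day 7. At day 14 they ranged from -0.16 to 0.63 around a mean of 0.16, and at day 21 from 0.09 to 0.68. The phase call was lost without day 3 (0.43) or day 7 (0.41) and with a common spread of arrays (0.41), whereas the pairs were alike, at 0.50 in replicates 1 and 2 and 0.51 in 3 and 4. Cdc25c, a phosphatase that activates Cdk1, stood at 0.25 ± 0.11 (adjusted p = 0.0040), and Cdk4, the partner of D cyclins, at 0.20 ± 0.10 (adjusted p = 0.0031). Cdk4 was high in replicates 1 and 2 (0.34), while replicates 3 and 4 gave 0.06 (adjusted p = 0.29). Its 2 spots had hypoxia means of 0.34 and 0.06. Cdk2, the partner of E and A cyclins, had a phase mean near 0 (0.0039), made of 0.37 in replicates 1 and 2 and -0.44 in 3 and 4.

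The genes that restrain CDKs went both ways. Cdkn2c, which encodes the Cdk4 and Cdk6 inhibitor p18, had a mean of 0.33 ± 0.17 (1.26-fold, adjusted p = 0.0011). Its arrays read 0.62, 0.58, 0.45 and 0.31 at day 3, against 0.03, 0.00, 0.13 and 0.01 at day 1, with no overlap. Cdkn3, a phosphatase that acts on CDKs, was higher at 0.18 ± 0.22 (adjusted p = 0.049), a call lost in most other settings. Cdkn1b, which encodes the inhibitor p27, was lower at -0.19 ± 0.09 (adjusted p = 0.012), but it stood at -0.45 in replicates 1 and 2 and 0.06 in 3 and 4, and its call was lost without day 3 (-0.16), replicate 1 (-0.11) or replicate 2 (-0.11).

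**Figure D2:**
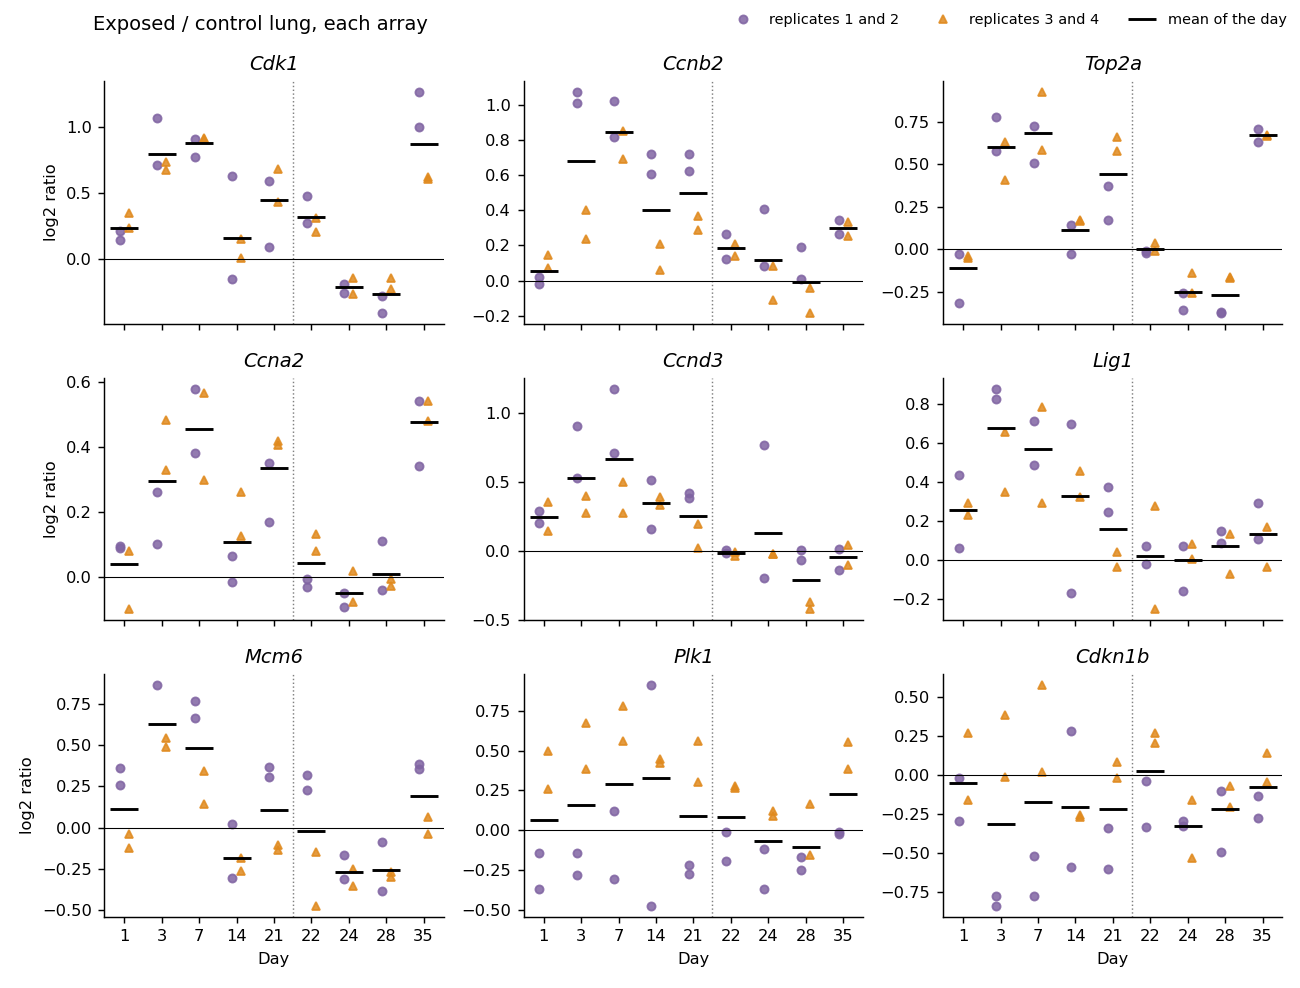
Log2 ratio (exposed over control lung) of 9 members on each array by day, with replicates 1 and 2 as circles, replicates 3 and 4 as triangles and the day mean as a bar; a dotted line separates hypoxia from recovery. Cdk1, Top2a and Ccna2 are high at days 3, 7 and 35 in both pairs, and Plk1 and Cdkn1b differ between the pairs.

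In DNA synthesis, 6 of 14 members tested were higher and 2 lower, against 24.7 and 17.7 percent of all features. Lig1, the ligase that joins lagging-strand fragments, had a mean of 0.40 ± 0.22 (1.32-fold, adjusted p = 0.00096). Its arrays read 0.88, 0.83, 0.35 and 0.66 at day 3 and 0.71, 0.49, 0.79 and 0.29 at day 7, and those of day 14 spread from -0.17 to 0.70. Rfc2 (0.15) and Rfc3 (0.20), subunits of the clamp loader, and Pold2 (0.16), Pole (0.16) and Pole4 (0.09), polymerase subunits, were higher as well. Their pairs differed: Rfc3 stood at 0.38 in replicates 1 and 2 and 0.02 in 3 and 4, Rfc2 at 0.25 and 0.04, and Pold2 at 0.36 and -0.04. The calls of Rfc2, Pold2, Pole and Pole4 were each lost without day 3 or day 7. Pold3, another subunit of polymerase delta, was lower at -0.26 ± 0.10 (adjusted p = 0.0023). Each replicate pair (-0.32 for 1 and 2, -0.20 for 3 and 4) and both spots (-0.27 and -0.24) were below 0. Prim1, the small subunit of primase, was lower at -0.11 ± 0.06 (adjusted p = 0.039), but its call was lost without any of replicates 2 to 4, with values between -0.11 and -0.078, with a common spread (-0.086), in replicates 1 and 2 alone (-0.03), and without any of days 1, 3, 14, 21, 22 or 24. Pcna, the sliding clamp, stood at -0.06 ± 0.17 and did not pass.

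Top2a, the topoisomerase that untangles chromosomes and peaks in G2 and mitosis, had a hypoxia mean of 0.35 ± 0.34 that did not pass (adjusted p = 0.055). Its 2 spots disagreed in size, with hypoxia means of 0.66 and 0.03. By day it was far from steady: the arrays read 0.58, 0.78, 0.63 and 0.41 at day 3 and 0.51, 0.72, 0.58 and 0.93 at day 7, against -0.03, -0.32, -0.05 and -0.04 at day 1. The spots had means of 0.92 and 0.29 at day 3 and 0.01 and -0.23 at day 1, so the difference between these days was of like sign in each.

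None of the 12 origin and helicase genes was higher over the whole phase and 1 was lower, against 24.7 and 17.7 percent of all features. The lower gene was Orc4 at -0.17 ± 0.16 (adjusted p = 0.032), with -0.33 in replicates 1 and 2 and -0.0077 in 3 and 4. Its call was lost without replicate 1 (-0.096), replicate 2 (-0.13), day 3 (-0.16), day 7 (-0.10) or day 14 (-0.17). On single days some Mcm genes, subunits of the helicase that opens DNA, did pass. Mcm6 read 0.86, 0.48 and 0.54 on 3 arrays of day 3 (adjusted p = 0.00052) and 0.66, 0.77, 0.34 and 0.14 at day 7 (adjusted p = 0.0010), against values between -0.30 and 0.02 at day 14. Mcm2 was higher at days 3 (0.34) and 7 (0.31), Mcm5 at day 7 (0.33) and Mcm7 at day 3 (0.58, with 0.78, 1.27 and -0.31 on its 3 arrays). Their phase means were 0.23 ± 0.32 for Mcm6, 0.19 ± 0.28 for Mcm7, 0.17 ± 0.17 for Mcm2, 0.11 ± 0.15 for Mcm5 and 0.03 ± 0.07 for Mcm3, with adjusted p between 0.051 for Mcm2 and 0.54 for Mcm3.

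Of 29 mitotic and centromere members tested, 12 were higher and 1 lower (all features 24.7 and 17.7 percent), with a median of 0.11. Mad2l1bp, which encodes a protein that silences the spindle checkpoint, had the lowest adjusted p of all members (0.00029), with a mean of 0.38 ± 0.12 and values above 0 on all 20 hypoxia arrays, from 0.08 to 0.73. Cenpt, a kinetochore protein, stood at 0.33 ± 0.12 (adjusted p = 0.00044). The checkpoint kinases Ttk (0.26 ± 0.18), Bub1 (0.24 ± 0.10) and Bub1b (0.24 ± 0.14) and the centromere histone Cenpa (0.26 ± 0.24) were higher. Bub1 averaged 0.37 in replicates 1 and 2 but 0.11 in 3 and 4 (adjusted p = 0.073), and Cenpa 0.41 but 0.12 (adjusted p = 0.14), while Ttk was the other way round, at 0.15 (adjusted p = 0.20) in the first pair but 0.40 in the second. The calls of Cenpa and Ttk were each lost without day 3 (0.22 and 0.21) or day 7 (0.19 and 0.22), and that of Ttk without replicate 4 (0.21) or replicate 2 of day 14 (0.22) and with a common spread (0.22). Kif2c (0.21), a kinesin that takes microtubules apart, Kif23 (0.15) and the kinetochore genes Cenpl (0.15) and Cenpn (0.13) were the other higher members, and each of these 4 calls was lost without day 3 or day 7. Kif23 stood at 0.25 in replicates 1 and 2 and 0.05 in 3 and 4, and Cenpl at 0.24 and 0.07. Spots of 1 gene also differed in hypoxia mean, at 0.14, 0.04 and 0.28 for Kif23 and 0.30 and 0.02 for Bub1. Mad2l1, the checkpoint protein itself, stood at 0.04 ± 0.16, Bub3 at 0.03 ± 0.10 and the kinase Aurka at 0.13 ± 0.14, and none of these passed. Aurkb, the kinase of the chromosomal passenger complex, was lower at -0.36 ± 0.43, which rested on day 7 (-1.16, -1.59, -0.76 and -0.83). Its call was lost without day 7 (-0.18), day 3 (-0.35), replicate 2 (-0.22) or replicate 4 (-0.39) and in each pair alone (-0.47 and -0.25), and single arrays of days 22 and 28 reached -1.78 and -2.03.

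A pair of mitotic members passed over the phase with the replicate pairs in opposite directions. Plk1, the main Polo-like kinase, stood at 0.19 ± 0.12 (adjusted p = 0.018), with -0.12 in replicates 1 and 2 and 0.49 in 3 and 4, and its call was lost without day 7 (0.16), day 14 (0.15), replicate 3 (0.087) or replicate 4 (0.082) and with a common spread (0.14). Kif11, a kinesin that separates spindle poles, stood at 0.21 ± 0.23 (adjusted p = 0.0295), with 0.51 in replicates 1 and 2 and -0.20 in 3 and 4. Its call was lost without day 1 (0.21), day 3 (0.12), day 7 (0.19), replicate 2 (0.13) or replicate 4 (0.18), and with median centring (0.18).

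Cdc20, the activator of the anaphase-promoting complex, and Cdc27, a scaffold subunit of that complex, went opposite ways. Cdc20 was higher at 0.33 ± 0.27 (adjusted p = 0.011). The pairs differed here, since replicates 1 and 2 averaged 0.60 but replicates 3 and 4 only 0.08 (adjusted p = 0.49). Its arrays read 0.87, 1.20, 0.16 and -0.16 at day 3 and 1.22, 0.88, 0.81 and -0.22 at day 7, so 1 array at each day went against the others. The call was lost without day 3 (0.28), day 7 (0.24) or replicate 1 (0.22). Cdc27 was lower at -0.45 ± 0.32 (adjusted p = 0.0030). It was below 0 in each pair (-0.39 for replicates 1 and 2, -0.49 for 3 and 4), and its lowest day was day 7 (-1.19, -1.01 and -0.80 on 3 arrays). The 2 spots of Cdc27 differed in size, with hypoxia means of -0.18 and -0.58. At day 1 they stood at 0.39 and -0.57. Cdc23, the other subunit in the set, stood at -0.01 ± 0.07. Of further subunits outside the set, Anapc5 (0.32) and Anapc2 (0.14) were higher, and Anapc7 (-0.38), Anapc10 (-0.19), Anapc4 (-0.16) and Anapc1 (-0.13) lower.

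Among the 21 members with other main roles, 5 were higher, near the share of all features (24.7 percent), and 2 lower (all features 17.7 percent). Cdk13, a kinase of RNA polymerase II, stood at -0.38 ± 0.15 (adjusted p = 0.00083). Most of this came from replicates 3 and 4 (-0.57), as replicates 1 and 2 averaged -0.16 (adjusted p = 0.11). Cdk16, a kinase linked to vesicle traffic and spermatogenesis, stood at -0.35 ± 0.14 (adjusted p = 0.0048) and was -0.35 in each pair. Cdk18 was higher at 0.26 ± 0.15 (adjusted p = 0.0028), as were Cdc37 (0.24), a chaperone for kinases, Cdk2ap1 (0.23), Ccnb2-ps (0.19) and Cdk20 (0.17). Replicates 3 and 4 alone gave less for Cdc37 (0.11), Cdk2ap1 (0.04) and Cdk20 (0.01), none of which passed there. Ccnb2-ps is listed as a pseudogene of Ccnb2, and cross-hybridisation between their spots was not tested. The 55 members that did not pass ranged from -0.12 for Cdkn2aip to 0.35 for Top2a. Of 30 members with more than 1 spot, all spots had 1 sign in 19, and spots passed alone in opposite directions for Cdkn2aipnl (0.21 and -0.25) and Orc2 (0.19 and -0.24).

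**Figure D3:**
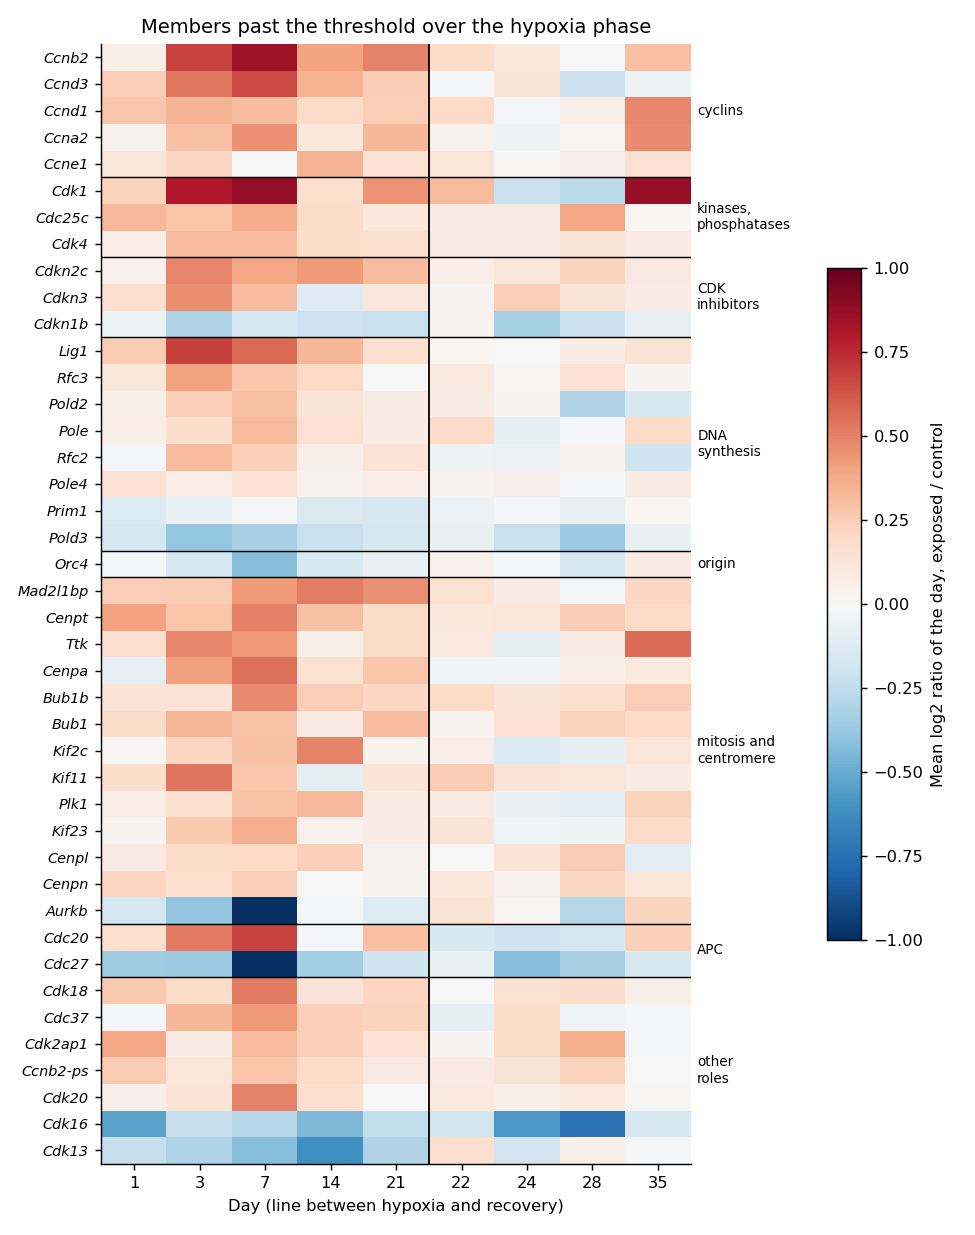
Heat map of day means (log2 ratio, exposed over control lung, colour scale from -1 to 1) of the 42 members past the threshold over the hypoxia phase, grouped by role and ordered by hypoxia mean within a role. Red runs through days 3 and 7 for most cyclins, Cdk1, Lig1, Cenpa and Cdc20, and Cdk1, Ccna2, Ccnd1 and Ttk are red again at day 35.

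On single days the counts of members are given beside the shares of all features. At day 1, 7 of 98 were higher and 1 lower (8.16 percent), against 19.7 percent of all features past the threshold, 10.6 percent higher and 9.08 percent lower. At day 3, 27 of 97 were higher and 2 lower, against 23.3 percent of all features, 13.3 percent higher and 10 percent lower. At day 7, 30 of 93 were higher and 7 lower, against 36.0 percent, 20.5 percent higher and 15.5 percent lower. At day 14, 12 of 97 were higher and 7 lower, against 27.8 percent, 15.6 percent higher and 12.3 percent lower. Leaving out replicate 2 of day 14 gave 6 higher and 10 lower at that day (6.45 and 10.8 percent, against 13.1 and 9.37 percent of all features). At day 21, 6 of 97 were higher and none lower, against 4.57 percent, 2.24 percent higher and 2.33 percent lower. The share of members that were higher thus exceeded that of all features at days 3 (27.8 percent), 7 (32.3 percent) and 21 (6.19 percent) and was below it at days 1 (7.14 percent) and 14 (12.4 percent). Days differed in spread, with a median SD between arrays of 0.21 at day 3 and 0.11 at day 24. When each day was tested on its own 4 arrays, an alternative chosen after seeing the data, 1 member (Cdk1) passed at day 3 (1.02 percent, against 0.843 percent of all features), 17 at day 7 (18.3 against 16.2 percent), 2 at day 14 (2.06 against 4.63 percent) and 0 at day 21 (against 0.382 percent). At day 21, 17 of 97 members had an unadjusted p under 0.05 in limma with a shared spread, as had 1847 of 12238 features.

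Of the 34 members higher over hypoxia, 18 were highest at day 7, 9 at day 3, 5 at day 14, 2 at day 1 and 0 at day 21. All features that were higher over hypoxia peaked at day 7 in 45.3 percent, day 14 in 22.0 percent and day 3 in 19.8 percent. By role, the median of the cyclins was 0.08, 0.32, 0.38, 0.27 and 0.25 over days 1, 3, 7, 14 and 21, and that of the origin and helicase genes 0.02, 0.07, 0.21, 0.00 and -0.04. DNA synthesis genes had their highest median at day 3 (0.18 over 15 genes). Over the 14 of them tested on single days, days 3 and 7 were near level (0.121 and 0.118). Mitotic genes had their highest median at day 7 (0.19).

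**Figure D4:**
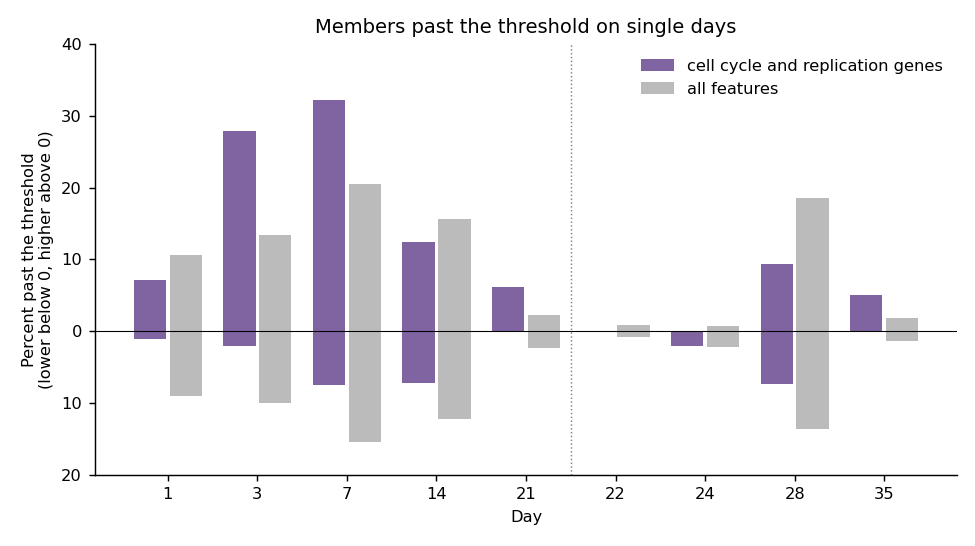
Percent of cell cycle and replication genes (left bars) and of all features (right bars) past an adjusted p of 0.05 on each day, with higher above 0 and lower below 0. Higher members exceed the share of all features at days 3, 7, 21 and 35.

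Between days 3 and 1, 4 of 97 members differed and all were higher at day 3, against 1.18 percent of all features, 0.522 percent higher and 0.662 percent lower. Top2a differed by 0.71 ± 0.10 (SE; adjusted p = 4.0e-05), Ccnb2 by 0.62 ± 0.15 (adjusted p = 0.027), Cdk1 by 0.56 ± 0.14 (adjusted p = 0.035) and Cdkn2c by 0.44 ± 0.08 (adjusted p = 0.0021). With spots averaged by gene, Top2a passed in each of 12 other settings tried for this difference, each replicate pair alone included. Without replicate 1 it alone passed, without replicate 2 it passed with Cdk1, and without replicate 3 with Cdkn2c. A straight trend on log2 day over the 5 hypoxia days passed in limma for 0 of 97 members and for 0.0 percent of features. An unadjusted p under 0.05 was found for 2 members and for 333 of 12159 features.

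Over recovery (the mean of 4 day means), 0 of 97 members were higher and 1 lower, against 4.77 percent of all features, 1.65 percent higher and 3.12 percent lower, and the median member stood at 0.03. The lower member was Cdk16 at -0.41, whose arrays read -0.71, -0.66, -0.55 and -0.39 at day 24 and -0.90, -0.64, -0.39 and -1.03 at day 28. It passed in each replicate pair alone but not without day 3, 22, 24 or 28, when 0 members passed. Of all features 0.107, 0.0987, 0 and 0.0164 percent passed in those 4 fits. Its 2 spots had recovery means of -0.63 and -0.20. Scaling the arrays to a common spread gave 10 higher and 4 lower (14.4 percent, against 26.3 percent of all features).

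The hypoxia phase minus the recovery phase passed for 0 of 97 members in limma, against 0.0329 percent of all features. In that fit 16 of the 97 members had an unadjusted p under 0.05, as had 1843 of 12159 features. The lowest adjusted p was 0.0965, for Ccnd3 (0.41 in hypoxia and -0.04 in recovery, a difference of 0.44). Lig1 (0.34), Mad2l1bp (0.27) and Cdk13 (-0.38) followed, with adjusted p between 0.11 and 0.15, and the median member differed by 0.06.

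Recovery was not uniform for the S-phase and mitotic genes. On the first day back at sea-level pressure 0 of 97 members passed in limma (1.57 percent of all features did, 0.809 percent higher and 0.76 percent lower). There 5 members had an unadjusted p under 0.05, as had 1203 of 12242 features. Top2a fell to -0.0019 at day 22, with arrays between -0.02 and 0.04, against 0.45 at day 21, where the arrays read 0.37, 0.17, 0.66 and 0.58. That difference of -0.45 ± 0.10 (SE; adjusted p = 0.019) was the only one of 96 members past the threshold between these days, against 0.611 percent of all features, 0.371 percent higher and 0.239 percent lower, and it was lost without replicate 1, 3 or 4. At day 24, Top2a (-0.25, adjusted p = 0.0405) and Cdk16 were lower and none was higher among 97, against 2.93 percent of all features, 0.79 percent higher and 2.14 percent lower.

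At day 28, 9 of 96 members were higher and 7 lower, against 32.2 percent of all features, 18.6 percent higher and 13.6 percent lower. Cdc25c (0.39) and Cdkn2c (0.22) were among those higher, and Cdk1 (-0.27), Top2a (-0.27), Pold3 (-0.37), Cenpb (-0.41) and Ccnd2 (-0.28) among those lower. Median centring gave 4 higher and 11 lower there (4.17 and 11.5 percent, against 15.4 and 16.4 percent of all features). Without replicate 1 of that day 8 passed (8.7 percent, against 18.3 percent). Leaving out replicate 1 of every day gave 4 (4.21 against 15 percent), and leaving out replicate 4 gave 8 (8.33 against 26.5 percent).

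At day 35, after 14 days at sea-level pressure, 5 of 98 members passed and all were higher, against 3.19 percent of all features, 1.82 percent higher and 1.37 percent lower. Cdk1 read 1.00, 1.27, 0.61 and 0.62 (adjusted p = 1.0e-07), against -0.41, -0.29, -0.23 and -0.15 at day 28. Top2a read 0.63, 0.71, 0.66 and 0.67 (adjusted p = 2.0e-08), and its spots had means of 0.94 and 0.40. Ccna2 read 0.54, 0.34, 0.48 and 0.54 (adjusted p = 9.2e-07), Ccnd1 0.50, 0.61, 0.34 and 0.48 (adjusted p = 0.00013) and Ttk 0.33, 0.79, 0.52 and 0.61 (adjusted p = 0.019). None of these arrays overlapped the day 28 arrays of its gene for Cdk1, Top2a, Ccna2 and Ccnd1. No difference between days 35 and 28 was tested, here or for the markers below. Cdk1, Top2a and Ccna2 passed at day 35 in each of 13 other settings tried with spots averaged by gene, each replicate pair alone included. Of the hypoxia-phase leaders, Ccnb2, at 0.27, 0.34, 0.26 and 0.33, did not pass (adjusted p = 0.16), nor did Lig1 (0.13) or any Mcm gene. Among erythroid markers, Hbb-b1, a globin gene, stood at 1.64 at day 35 and -0.60 at day 28, Alas2, of heme synthesis, at 0.83 and -0.28, Slc4a1 at 0.05 and -0.48, and Ermap at 0.0085 and 0.07. S100a9, a neutrophil gene, stood at -3.25 at day 35 and -2.97 at day 28. Of the 4 erythroid markers, 2 were higher and 0 lower at days 1, 3, 7, 14, 22 and 35, and 2 were lower at day 28. The highest stood at 1.255 at day 1 and at 1.313 at day 22, a day at which 0 of 97 members passed. Other cell types moved at day 35 too, with 3 endothelial markers between -0.48 and 1.16 and the lymphocyte marker Ighm at -0.71. The part of such cells in the day 35 values was not tested.

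Over the 9 day means, Top2a (r = 0.95), Kif23 (0.92), Ttk (0.92), Ccnd1 (0.92), Ccna2 (0.91) and Mcm6 (0.89) were most like Cdk1 in their course. Values with Cdk1 ran down to -0.73 (Cdc14a), with Cdkn3 (0.34) in the middle of the members. Between pairs of the 98 members, rather than with Cdk1, the median r was 0.10. These points share arrays and control pools. Kif23, a kinesin of cytokinesis, was at 0.36 at day 7 and 0.20 at day 35.

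Of 96 members with values in both replicate pairs, 57 had the same sign over hypoxia (59.4 percent), against 56.8 percent of all features. Of the 42 called members, 38 had the same sign (90.5 percent), as had 4530 of 5087 called features (89.1 percent). In each pair alone 14 passed in the same direction (33.3 percent), against 36.4 percent of called features, a share near the background. Those were Bub1b, Ccnb2, Ccnd1, Ccnd3, Cdc25c, Cdk1, Cdk18, Cdkn2c, Cenpt, Lig1 and Mad2l1bp, which were higher, and Cdc27, Cdk16 and Pold3, which were lower. All of these but Cdk1 passed over hypoxia in each of 21 other settings run on spots averaged by gene in which they were tested, 13 of 42 members (31 percent), against 34.7 percent of called features. Another 7 passed in each pair in opposite directions (7.29 percent, against 6.92 percent of all features), among them Cdk2, Orc1, Kif11 and Prim2.

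**Figure D5:**
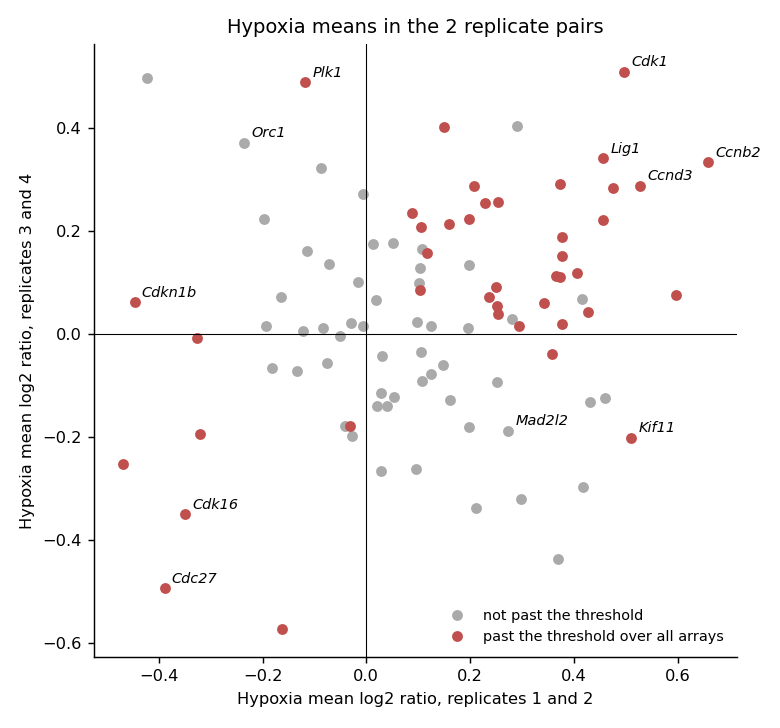
Hypoxia mean log2 ratio (exposed over control lung) of 96 members in replicates 1 and 2 (horizontal) against replicates 3 and 4 (vertical), with the 42 members past the threshold over all arrays in red. Cdk1, Ccnb2, Lig1 and Ccnd3 lie in the upper right, Cdc27 and Cdk16 in the lower left, and Plk1, Kif11 and Cdkn1b in the quadrants of opposite sign.

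Other genes of the cell cycle, listed by role without the symbols above, had 33 of 93 higher over hypoxia (35.5 percent, against 24.7 percent of all features) and 20 lower (21.5 percent, against 17.7 percent), with a median of 0.08. The share of members was 35.1 percent higher and 8.25 percent lower. Rcc1, the exchange factor of Ran, stood at 0.41 ± 0.12, Cks1b, a subunit of CDK complexes, at 0.38 ± 0.23 and the retinoblastoma gene Rb1 at 0.35 ± 0.17. Lower were Smc1a, a cohesin subunit (-0.50 ± 0.28), Wee1, the kinase that inhibits Cdk1 (-0.47 ± 0.15), and the lamin B receptor gene Lbr (-0.43 ± 0.19). Wee1 was below 0 at every hypoxia day, from -0.29 at day 1 to -0.69 at day 14. At day 35, 7 of 94 were higher (7.45 percent, against 1.82 percent of all features) and none lower. Higher genes were 27.7 percent at day 3 and 40.4 percent at day 7, against 13.3 and 20.5 percent of all features. The list leaned lower at day 1 (4.26 percent higher and 13.8 lower, against 10.6 and 9.08) and day 28 (9.68 and 17.2, against 18.6 and 13.6). The proliferation marker Mki67 did not pass over hypoxia (0.11, adjusted p = 0.095 in limma) and stood at -0.05 at day 3 and 0.002 at day 35.

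Markers of cell types that could change in number moved over the same phase. Of 4 erythroid markers 2 were higher (Hbb-b1 0.99 and Alas2 0.63), with a median of 0.34 over the list, while Slc4a1 (0.04) and Ermap (0.02) did not pass. Of 6 fibroblast and smooth muscle markers 3 were higher and 1 lower (Col3a1 0.71, Col1a1 0.64, Col1a2 0.57 and Pdgfra -0.22), and of 3 endothelial markers 2 were higher and 1 lower (Emcn 0.66, Cdh5 0.27 and Ednrb -0.66). Among 4 macrophage and neutrophil markers 1 was higher and 3 lower (Ltf 0.68, S100a9 -1.51, Fcgr3 -0.33 and Fcgr1 -0.27), Epcam, the 1 epithelial marker, was higher at 0.16, and Ighm, the 1 lymphocyte marker, stood at 0.08. The part of these cells in the values above was not tested.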

How the data were processed

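The labels describe 36 spotted 2-colour cDNA arrays, each comparing pooled lung RNA of 5 exposed and 5 control mice. Per the labels' protocols, the authors corrected background, removed flagged spots and deposited the log2 ratio of the channels' median intensities after lowess normalization within each array. Arrays held 14186 to 15042 values, their medians lay between -0.016 and 0.050, and their number limits the precision. Spot names came from the platform annotation: 9598 spots had 1 symbol, 514 several and 5276 none, and only the first kind was matched to the set. Spots were averaged by gene, which gave 12761 features.

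Phases were tested in limma 3.58.1 (R 4.3.3) on the 9 day means, with at least 2 arrays a day, and days on all 36 arrays with a shared spread and at least 3 arrays a day. Benjamini-Hochberg adjustment ran over all features, at a threshold of 0.05, two-sided. The scripts were tested on simulated data. Cenph and Pole2 had too few values for the phases. Members and lists were chosen with earlier results of these data known. Named genes are members past the threshold with 1 sign at all days of a phase, up to 12 in each direction for hypoxia, 6 for recovery, 5 for differences and trend and 2 for single days, and a fixed list, of which Mcm4, Ccnb1, Cdkn1a, Plk2, Plk3 and Kif4 are not analysed here. Other members were named after their values were seen. Alternatives were median centring, a common spread of arrays, complete features, single spots, left-out replicates, days or arrays, each replicate pair, a replicate block and each day's own spread.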

Additional observations from a re-analysis of the deposited data

Results flagged for a closer look

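In 8 of 113 groups of 4 or 5 values, the highest or lowest stood apart from the others by Dixon's criterion, which chance does in about 1 group in 20. Among hypoxia day means these were Cdc27 at day 7 (-1.001), Cenps, a centromere protein gene, at day 3 (-0.27), Orc2, of the origin recognition complex, at day 1 (0.17) and Ccnd2 at day 21 (0.0536). Among recovery day means they were Cdc25c at day 28 (0.39) and Cdc20 at day 35 (0.24). The median over members stood apart on replicate 3 of day 22 (-0.0245) and on replicate 1 of day 28 (0.0501), the array with the widest spread.

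Members differed between neighbouring days of exposure by the limma test of the difference: Top2a (0.71), Ccnb2 (0.62), Cdk1 (0.56) and Cdkn2c (0.44) between days 3 and 1, and Top2a (-0.45) between days 22 and 21.

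Of 9 spots that carry a member's symbol beside another gene's and stayed out of the set, 4 passed over hypoxia. The spot named Gse1 and Gins2 stood at -0.52 (adjusted p = 0.0014), that named Acvr2a and Orc4 at -0.23 (adjusted p = 0.0087), 1 of those named Cdk12 and D11Ertd752e at -0.13 (adjusted p = 0.0296) and that named Adcy3 and Cenpo at 0.23 (adjusted p = 0.0015). Which of the named genes such a spot measured was not tested.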

How the results depend on the processing

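Counts below are members past the threshold, of 42 over hypoxia, 1 over recovery, 0 for their difference and the trend, 8, 29, 37, 19, 6, 0, 2, 16 and 5 at days 1, 3, 7, 14, 21, 22, 24, 28 and 35, 4 between days 3 and 1 and 1 between days 22 and 21. A common spread of arrays gave 27 over hypoxia, 14 over recovery, 18, 24, 10, 10, 1, 13 and 17 at days 3, 7, 14, 21, 22, 24 and 35, and 2 between days 3 and 1. In the same order, 37.4, 26.3, 14.8, 21.9, 15.7, 7.72, 4.83, 20, 11.2 and 0.853 percent of all features passed. Features complete on all arrays, 55 of them members, gave 3, 18, 12, 10 and 3 at days 1, 3, 14, 28 and 35. All complete features passed in 26.7, 29.6, 34.8, 39.6 and 4.43 percent at these days. Replicates 1 and 2 alone gave 4 over recovery, 2, 2, 1 and 10 at days 1, 22, 24 and 28, 7 between days 3 and 1 and 0 between days 22 and 21. The shares of all features were 9.09, 8.16, 4.72, 1.17, 33.7, 1.15 and 0.201 percent in that order. Replicates 3 and 4 alone gave 7 over recovery, 21, 10, 2, 0, 9 and 11 at days 1, 21, 22, 24, 28 and 35, and 2 between days 3 and 1. For all features these shares were 13.3, 30.9, 12.1, 7.77, 0.781, 22.8, 5.75 and 2.09 percent. Single spots gave 0 over recovery, at day 24 and between days 22 and 21. Each day's own spread gave 1, 17, 2, 0 and 8 at days 3, 7, 14, 21 and 24, against 0.843, 16.2, 4.63, 0.382 and 10.9 percent of all features. Leaving out replicate 1 of day 28 gave 8 at that day (8.7 percent, against 18.3 percent of all features). Leaving out 1 replicate, day or array at a time gave 21 to 48 over hypoxia, 0 to 3 over recovery, 0 to 0 for the difference and the trend, 3 to 8 at day 1, 18 to 31 at day 3, 30 to 40 at day 7, 10 to 20 at day 14, 4 to 7 at day 21, 0 to 0 at day 22, 1 to 2 at day 24, 4 to 18 at day 28, 4 to 5 at day 35, 1 to 4 between days 3 and 1, 0 to 1 between days 22 and 21, and 35 to 56 for the other cell cycle genes. With the replicate number as a block, 45 passed over hypoxia (46.4 percent, against 45.2 percent of all features) and 9 over recovery (9.28 against 20.9 percent). The block gave 6 for the difference (6.19 against 6.71 percent) and 10 at day 21 (10.3 against 8 percent). The 6 were Ccnb2, Ccnd3, Cdkn2c, Lig1 and Mad2l1bp, higher in hypoxia, and Cdk13, lower. The block ended 7 hypoxia calls: Aurkb (adjusted p = 0.11), Ccne1 (0.059), Kif11 (0.068), Prim1 (0.055), Cdk20 (0.095), Cdkn3 (0.079) and Rfc2 (0.057). Deviations of same-numbered arrays of different days correlated with a median of 0.38 (88.2 percent over 0.1, the lowest -0.12), against -0.25 for different numbers. All 36 arrays went with their own replicate pair, but 16 of 36 were most like their own number. As not every correlation passed 0.1 and the labels tie the numbers to nothing shared, they were not taken as pairing the arrays. The other counts lay within 1.5 times of those above, and the cause of the moves was not tested.

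Of 1166 hypoxia means of 57 named genes under these settings, 1012 kept their direction and side of the threshold, 72 lost a call, 44 gained one and 38 changed sign, 3 of these for genes past the threshold (Cdkn1b, Kif11 and Plk1). With replicates 1 and 2 alone the sign changed for Aurka (-0.0055), Cenpb (0.027), Cenpo (-0.20), Mcm3 (-0.072), Mcm9 (0.054), Pcna (0.022) and Plk1 (-0.12). With replicates 3 and 4 alone it changed for Bub3 (-0.036), Cdc40 (-0.13), Cdc5l (0.0060), Cdk2 (-0.44), Cdkn1b (0.061), Kif11 (-0.20), Mcm7 (-0.12) and Orc2 (0.011). It changed with median centring for Cdc40 (-0.019) and Cdk2 (-0.017), and with the replicate block for Cdk2 (-0.018). Leaving out 1 replicate, day or array at a time changed it for Bub3 (-0.0036 to 0.074), Cdc40 (-0.048 to 0.036, and -0.028 without replicate 2 of day 14), Cdk2 (-0.16 to 0.18), Cenpo (-0.048 to 0.14), Cenps (-0.057 to 0.033), Mad2l1 (-0.010 to 0.098), Mcm3 (-0.043 to 0.091) and Mcm9 (-0.059 to 0.060, and 0.012 without replicate 2 of day 14), given as their whole ranges.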
